A study of Rattus norvegicus with 12 samples.

Results

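Cytosolic ribosomal protein mRNAs were followed in the jejunal mucosa of rats labelled high Fe or low Fe. The members were 56 probe sets of 48 genes, among 31142 probe sets and 13810 single gene symbols in all. A probe set was a member where its only platform gene symbol began with Rpl or Rps and a digit, or was Rplp0, Rplp1, Rplp2 or Rpsa; kinases named Rps6k and mitochondrial Mrpl and Mrps genes were left out. The 230A array held 50 of them, for 44 genes, and the 230B array held 6, for 6 genes. By symbol, 15 genes encode proteins of the small subunit and 33 encode proteins of the large subunit, counting the paralogs Rpl3l, Rpl7l1, Rpl27al2, Rpl39l1, Rps27l and Rps4y2 and the transcribed pseudogene Rps4x-ps1 with their parent protein. A further 34 probe sets on 230A and 4 on 230B name a ribosomal protein together with other symbols and were not members.

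RNA of whole jejunal scrapings was hybridised to Affymetrix rat 230A and 230B arrays, on which a group of short probes (a probe set) reports 1 transcript as a signal intensity. Each array type had 3 high Fe and 3 low Fe samples, all titled 12 week, and the labels of the 230A samples carry the keywords iron-deficiency and anemia. Strain, age, sex, the iron content behind the group names and whether the arrays of a group came from separate animals are not given in the sources used here, so the p-values reflect variation among these arrays only, part or all of which may be technical. In scrapings of mixed cells, fewer cells of a type and less RNA per cell cannot be told apart. The enterocyte genes matched the label: the fatty acid binding protein gene Fabp1 did not go below 14361 on any 230A array.

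Ribosomal proteins assemble with ribosomal RNA into the small subunit, which reads the mRNA, and the large subunit, which joins amino acids. Most of their mRNAs begin with an oligopyrimidine tract (a TOP motif), through which mTOR and the RNA-binding protein LARP1 set their translation together, so that protein output can change with no change in mRNA level. The jejunal epithelium renews itself from dividing crypt cells, which make many ribosomes. Inherited loss of 1 copy of certain ribosomal protein genes causes Diamond-Blackfan anemia, in which red cell precursors fail.

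The sequences around the annotated transcription start were searched for runs of C and T, which the rule did not use. Promoters of 42 of the 48 genes were matched in RefSeq (build GRCr8). Each line gives 20 bases before to 10 bases from the annotated start, 5′ to 3′ on the gene's strand, with the longest run of C and T in capitals. The first 6 genes had the smallest unadjusted p among members with a higher low Fe mean, and the last 4 are those with a promoter entry among the members with the smallest p on the lower side.
Rps3: TTCCTTTCCTTTCagcggcgcgcggcagca
Rps24: ggcagtgagcggTCCTCTTTTCCTCCTTTa
Rpl41: gaaggggcggCTCggaagtgacgacaccaa
Rps23: ccttgtgggtccttcctgCCTCTCTTCTCT
Rpl5: cagccaCTCTCTTTCCCacgtcgcttgcgt
Rpl19: gagcccgcgaccagcaagCTCTTTCCTTTC
Rpl7l1: gtggaagCTgcagatgcattgtgggaagcc
Rps27l: ttatagTTTattcatttgtcattatttgtg
Rpl18: gTCTTTCTggacctggtctagcaggaggcg
Rpl39: cagcgtcttctaatcgcgTTCTTCCggcct

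Those windows lie at chr1:163195767-163195796 on the minus strand for Rps3, chr16:96497-96526 on the plus strand for Rps24 and chr7:1563488-1563517 on the minus strand for Rpl41. They lie at chr2:23814497-23814526 on the plus strand for Rps23, chr14:1995216-1995245 on the minus strand for Rpl5 and chr10:83519044-83519073 on the plus strand for Rpl19. Rpl7l1 has chr9:21695698-21695727 on the plus strand, Rps27l chr8:76443638-76443667 on the plus strand, Rpl18 chr1:105325250-105325279 on the plus strand and Rpl39 chrX:121195887-121195916 on the minus strand. A run of at least 8 C or T lay in this window in 24 of the 42 genes (57.1%), against 12.1% of all 27457 promoters. Rps3, Rps24, Rps23, Rpl5 and Rpl19 have such a run at the start that RefSeq annotates. Rpl41, Rpl18, Rpl39 and the paralogs Rpl7l1 and Rps27l do not. The longest run in Rpl18 and in Rpl39 was 7 bases. In Rps3 and Rpl5 the run ended before the annotated start, so a run in this window is not read as a TOP motif.

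The promoters, taken as 250 bases before to 50 after the start, were also searched on both strands for 4 motifs. CCGGAAG, the core bound by ETS factors, was in 10 of the 42 (23.8%) and in 9.22% of all promoters. AAGATGGC, the core bound by YY1, was in 4 (9.52%) against 3.44%. CACGTG, the E-box that MYC can bind, was in 3 (7.14%) against 6.65%. ACGTG, the core of the hypoxia response element and also part of every CACGTG, was in 14 (33.3%) against 19.7%. A match describes the letters only.

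No ribosomal protein probe set passed the test in either direction. Of the 50 members on 230A, 46 (42 genes) were bright enough to be tested, and 0 of 46 reached an adjusted p of 0.05 in limma with Benjamini-Hochberg adjustment; the same test called 0.0945% of all 9519 probe sets tested. The smallest adjusted p of a member was 0.734. At an unadjusted p of 0.05, 0 of 46 passed on the higher side and 1 of 46 on the lower side, against 3.17% and 3.55% of all tested, or 6.72% in either direction. The groups did not overlap in 0 members on the higher side and in 2 on the lower side, against 5.61% and 6.12% of all tested. The dim Rpl7 probe set was the 1 member at this p and was among the 2 without overlap. It was tested only through its high Fe mean (151.5), as its low Fe mean (101.9) lay below the signal boundary of 109. limma run without a mean-variance trend and limma run with robust variances also called 0 members.

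The differences were small and mostly on the same side of 0. The log2 difference, low Fe minus high Fe, ranged from -0.51 (the dim Rpl7 probe set) to 0.42 over the 46. The median was 0.11 (1.08-fold) against -0.015 for all tested. The difference was above 0 in 35 and below 0 in 11, and above 0 in 46.8% of all tested probe sets. The 95% interval of all 46 stayed within 2-fold either way, and that of 29 stayed within 1.5-fold. The 16 small subunit probe sets had a median of 0.12 with 13 above 0, and the 30 large subunit probe sets had a median of 0.098 with 22 above 0. Probe sets that name a ribosomal protein among several symbols gave a similar picture, with a median of 0.12 and 28 of 34 above 0.

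**Figure D1:**
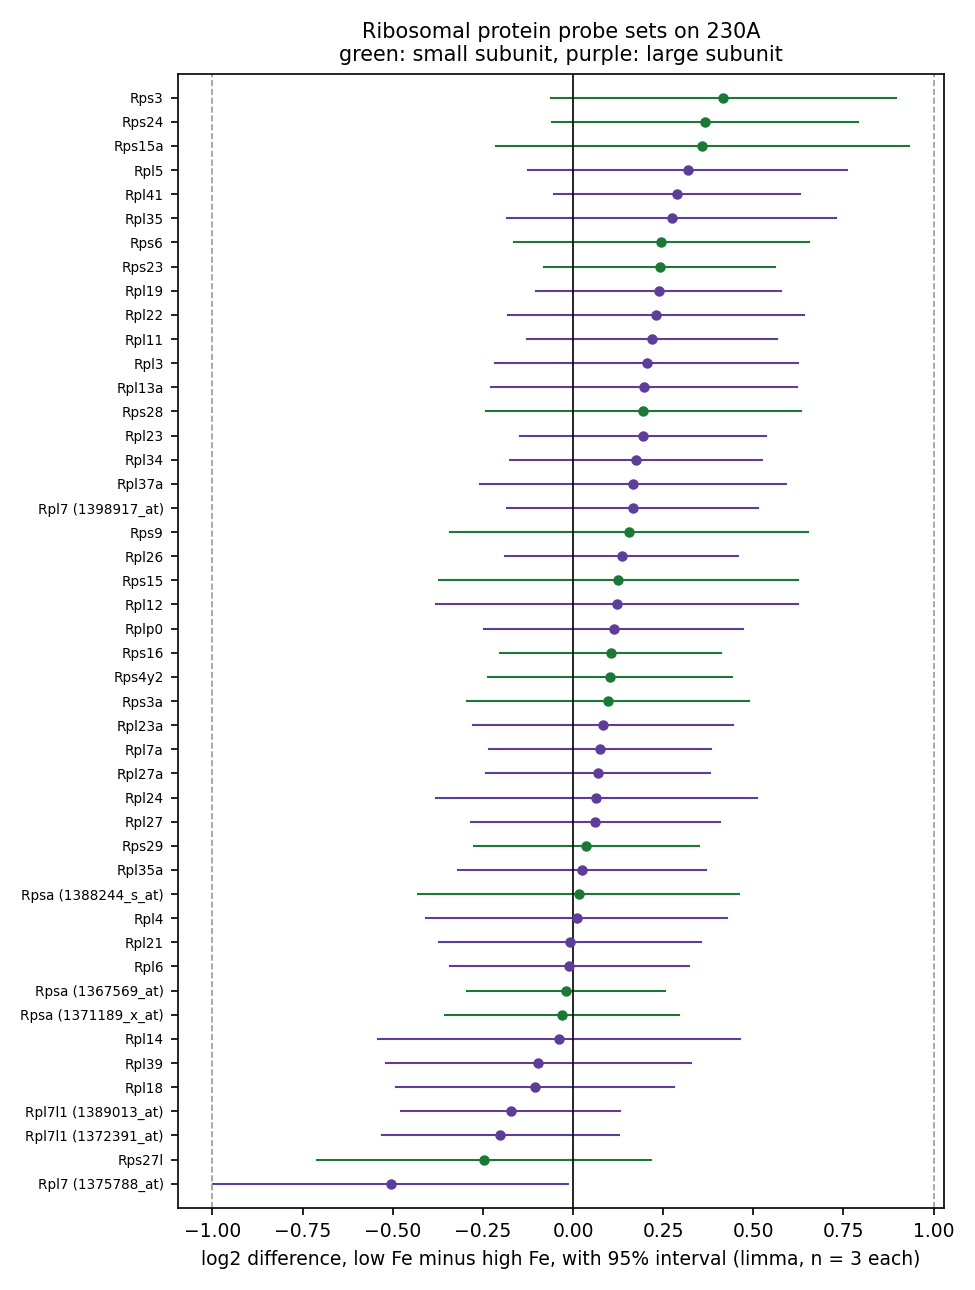
Log2 difference (low Fe minus high Fe) of each of the 46 tested ribosomal protein probe sets on 230A with its 95% interval from limma (3 arrays per group), small subunit in green and large subunit in purple. The point estimates run from -0.51 to 0.42, with 35 above 0.

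The medians of bright and dim members differed in sign. A mean signal of 1000 was used to split them, a value chosen after the signals were seen. Of the 40 members at or above it, 34 lay above 0, with a median of 0.13, while the 2408 other probe sets this bright had a median of 0.012. Of the 6 members below it, 1 lay above 0, with a median of -0.19, and these 6 were Rpl39, the dim probe set of Rpl7 and the paralogs Rpl7l1 (both probe sets), Rps27l and Rps4y2. The plot of difference against signal shows the dim members to the left and the bright members in a narrow band to the right.

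**Figure D2:**
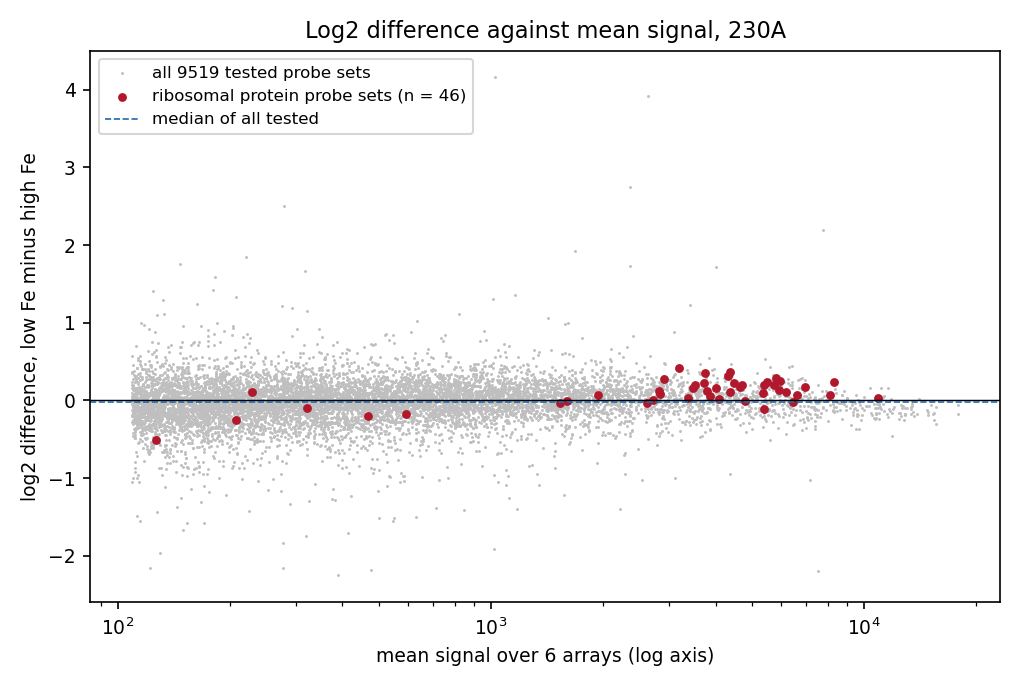
Log2 difference (low Fe minus high Fe) against mean signal over the 6 arrays (log axis) for the 46 ribosomal protein probe sets in red and all 9519 tested probe sets on 230A in grey, with the median of all tested dashed. Bright members lie mostly just above 0, with a median of 0.13 at signals of 1000 or more.

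In the small subunit, Rps3 and Rps24 had the largest differences above 0 of the tested members. Rps3, which lines the entry of the mRNA channel and also has a DNA repair activity, gave signals of 2466, 2366 and 3282 in high Fe replicates 1 to 3 and 2644, 4487 and 3855 in low Fe replicates 1 to 3. Low Fe 2 and 3 stood above every high Fe array, and low Fe 1 lay among them. The log2 difference was 0.42 ± 0.21 (SE, n = 3 per group; limma adjusted p = 0.765). Rps24, one of the Diamond-Blackfan anemia genes, gave 3583, 3279.6 and 4532 in high Fe and 3796, 5884 and 5119.9 in low Fe. Its groups overlapped through low Fe 1 in the same way, with a log2 difference of 0.37 ± 0.19 (limma adjusted p = 0.765). A second, dim Rps24 probe set (41.0 to 96.9) was not tested.

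Rps23, a protein of the decoding centre, gave 7256, 7259.9 and 8185 in high Fe and 7410.1, 10374 and 9249.5 in low Fe. Low Fe 1 again lay inside the high Fe range and the other low Fe arrays above it (log2 difference 0.24 ± 0.14, limma adjusted p = 0.784). Rps6, the substrate of S6 kinase, gave 4783, 5625 and 5844 in high Fe and 4909.5, 7965 and 6703 in low Fe. Its low Fe 1 signal was lower than those of high Fe 2 and 3, and the log2 difference was 0.25 ± 0.18 (limma adjusted p = 0.815). Rpsa, which also serves as the laminin receptor, was read by 3 probe sets. The brightest gave 6244, 6739.5 and 6518 in high Fe and 5944, 7364 and 6019 in low Fe, with low Fe 1 and 3 below and low Fe 2 above every high Fe array. Its log2 difference was -0.019, and the other two gave 0.02 and -0.03. The 3 values straddle 0 and give Rpsa no direction.

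In the large subunit, the same order of arrays recurred. Rpl41, the smallest ribosomal protein, gave 5369.6, 5107 and 5087 in high Fe and 5091, 7493 and 6677 in low Fe. The groups overlapped only through low Fe 1, and the log2 difference was 0.29 ± 0.15 (limma adjusted p = 0.767). Rpl19, which lies at the exit of the peptide tunnel, gave 4815.5, 4875 and 5344.5 in high Fe and 4759, 6813 and 6349 in low Fe. Low Fe 1 was the lowest of all arrays here and low Fe 2 the highest, with a log2 difference of 0.24 ± 0.15 (limma adjusted p = 0.790). The 6 tested genes of the tunnel exit had a median of 0.18, with 5 above 0.

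Rpl5 and Rpl11 form, with the smallest ribosomal RNA of the large subunit, the particle that binds MDM2 and so restrains p53 breakdown when ribosome assembly is disturbed. Rpl5 gave 3369, 3499 and 4582 in high Fe and 3845, 6180.1 and 4412 in low Fe, and only low Fe 2 exceeded every high Fe array. Its log2 difference was 0.32 ± 0.19 (limma adjusted p = 0.786). Rpl11 gave 3196, 3214.5 and 3918 in high Fe and 3367, 4676 and 4030.2 in low Fe. Low Fe 2 and 3 exceeded every high Fe array, with a log2 difference of 0.22 ± 0.15 (limma adjusted p = 0.805). Both genes are on the Diamond-Blackfan anemia list, of whose 20 genes 11 were tested on 230A; 10 of the 11 lay above 0, with a median of 0.20, and 0 were called.

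Rpl3, which lies close to the peptidyl transferase centre, gave 4628.5, 5200.2 and 6087 in high Fe and 4625, 7333 and 6613 in low Fe. Its lowest value was in low Fe 1 and its highest in low Fe 2, and the log2 difference was 0.20 ± 0.19 (limma adjusted p = 0.856). Rplp0, the base of the stalk that recruits translation factors and the one stalk protein among the members, gave 3702, 4096 and 4793.5 in high Fe and 3769.5, 5323 and 4578 in low Fe. High Fe 3 exceeded low Fe 3, and the log2 difference was 0.11 ± 0.16 (limma adjusted p = 0.897). Without low Fe 2 it was -0.0065, so its direction rested on that array.

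Rpl18, another Diamond-Blackfan anemia gene, and Rpl39, at the tunnel exit, had a lower low Fe mean. Rpl18 gave 5658, 6091 and 4963 in high Fe and 4027, 6144 and 5549 in low Fe. Low Fe 1 was the lowest array by a wide margin and low Fe 2 the highest, and the log2 difference of -0.11 ± 0.17 (limma adjusted p = 0.912) became 0.073 without low Fe 1. Rpl39 gave 287.5, 367.8 and 338.4 in high Fe and 376.5, 315.8 and 243.3 in low Fe. Here low Fe 1 was the highest array and low Fe 3 the lowest, and the log2 difference of -0.097 ± 0.19 (limma adjusted p = 0.926) became 0.062 without low Fe 3. With arrays scaled on their hybridization controls, which moved the median of all tested probe sets to 0.33, Rpl18 and Rpl39 stood at 0.25 and 0.24.

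Rpl7 was the one gene whose probe sets fell on opposite sides of 0 with one of them at an unadjusted p under 0.05. The bright probe set gave 3522, 3384 and 4465 in high Fe and 3723, 4907 and 4111 in low Fe, with overlapping groups and a log2 difference of 0.17 ± 0.15 (limma adjusted p = 0.860). The dim probe set gave 121.3, 176.2 and 156.9 in high Fe and 120.7, 82.3 and 102.6 in low Fe. Every low Fe value lay below every high Fe value, by 121.3 against 120.7 at the nearest, close to the signal of 109 under which probe sets were not tested. Its low Fe mean of 101.9 lies under that boundary, so it was tested only through its high Fe mean of 151.5. Its log2 difference was -0.51 ± 0.22 (unadjusted p = 0.0451, limma adjusted p = 0.734). The 2 probe sets give Rpl7 no common direction.

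Among the paralogs, none passed the test. Rpl7l1, a relative of Rpl7 found in assembling large subunits, was read by a pair of probe sets. One gave 514.8, 514.1 and 471.8 in high Fe and 369.0, 467.6 and 469.0 in low Fe, so that the groups did not overlap but came within a few units of each other (log2 difference -0.20 ± 0.14, limma adjusted p = 0.812). The other gave 583.8, 694.1 and 611.3 in high Fe and 590.7, 562.5 and 515.6 in low Fe, with high Fe 1 below low Fe 1 (log2 difference -0.17 ± 0.13, limma adjusted p = 0.824). Scaled on the hybridization controls these became 0.15 and 0.18, below the 0.33 of all tested probe sets. The log2 ratio of the brighter Rpl7l1 probe set to the bright Rpl7 probe set was -2.55 ± 0.29 in high Fe and -2.89 ± 0.24 in low Fe (SD, n = 3), a change of -0.34. A two-sided exact permutation test gave p = 0.2, where 3 against 3 can reach 0.1 at the lowest.

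Rps27l, a relative of Rps27 that p53 induces, gave 169.5, 288.2 and 230.1 in high Fe and 200.6, 188.7 and 171.4 in low Fe. High Fe 2 was the highest and high Fe 1 the lowest array, and the log2 difference was -0.25 ± 0.20 (limma adjusted p = 0.838), or 0.088 with hybridization control scaling. Rps4y2, a relative of Rps4x, gave 199.5, 237.4 and 224.2 in high Fe and 234.9, 253.7 and 224.3 in low Fe, with overlapping groups (log2 difference 0.10 ± 0.15, limma adjusted p = 0.901). Rpl3l, the striated muscle relative of Rpl3, gave 54.8, 18.2 and 11.8 in high Fe and 12.9, 18.9 and 22.2 in low Fe and was too dim to be tested. Rpl30 and the second Rpl14 probe set stayed at or below 91.1 and 24.1 and were not tested either.

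On 230B, 3 of the 6 members were tested, and 0 were called, as were 0% of the 9165 probe sets tested in limma. At an unadjusted p of 0.05, 0 of 3 passed, against 10.3% of all tested. Rpl27al2, a copy of Rpl27a, gave 1904, 1892 and 2274 in high Fe and 2443, 2267 and 2457 in low Fe, where low Fe 2 fell just below high Fe 3 (log2 difference 0.24 ± 0.16, limma adjusted p = 0.584). Rpl13a, which also takes part in silencing interferon-induced mRNAs, gave 1634, 1064.5 and 1276 in high Fe and 1274, 1577 and 1542 in low Fe. High Fe 1 was its highest array, and the log2 difference was 0.16 ± 0.20 (limma adjusted p = 0.780), beside 0.20 for Rpl13a on 230A. Rpl24, a protein of the subunit interface, gave 298.7, 267.4 and 480.7 in high Fe and 308.4, 215.8 and 310.3 in low Fe, with high Fe 3 alone above the rest. Its log2 difference was -0.28 ± 0.29 (limma adjusted p = 0.722), beside 0.06 on 230A. The other 3 members were too dim to be tested. Rpl39l1, a copy of Rpl39, gave 30.5, 31.4 and 183.2 in high Fe and 21.2, 41.2 and 37.0 in low Fe. The pseudogene Rps4x-ps1 gave 75.4, 7.2 and 10.9 in high Fe and 6.8, 57.2 and 19.7 in low Fe, and Rpl28 ranged from 23.8 to 73.7.

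The members varied together from array to array. Set against each probe set's mean over the 6 arrays, the median of the 46 members on the log2 scale was -0.17, -0.02 and 0.01 in high Fe 1 to 3 and -0.23, 0.27 and 0.19 in low Fe 1 to 3. The low Fe arrays thus lay at both ends of the range, with low Fe 1 lowest and low Fe 2 highest. The small subunit gave -0.21 in high Fe 1, -0.21 in low Fe 1 and 0.32 in low Fe 2, and the large subunit gave -0.14, -0.23 and 0.24 in the same arrays. The 6 dim members did not follow: their medians were -0.01, -0.04 and -0.21 in low Fe 1 to 3.

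**Figure D3:**
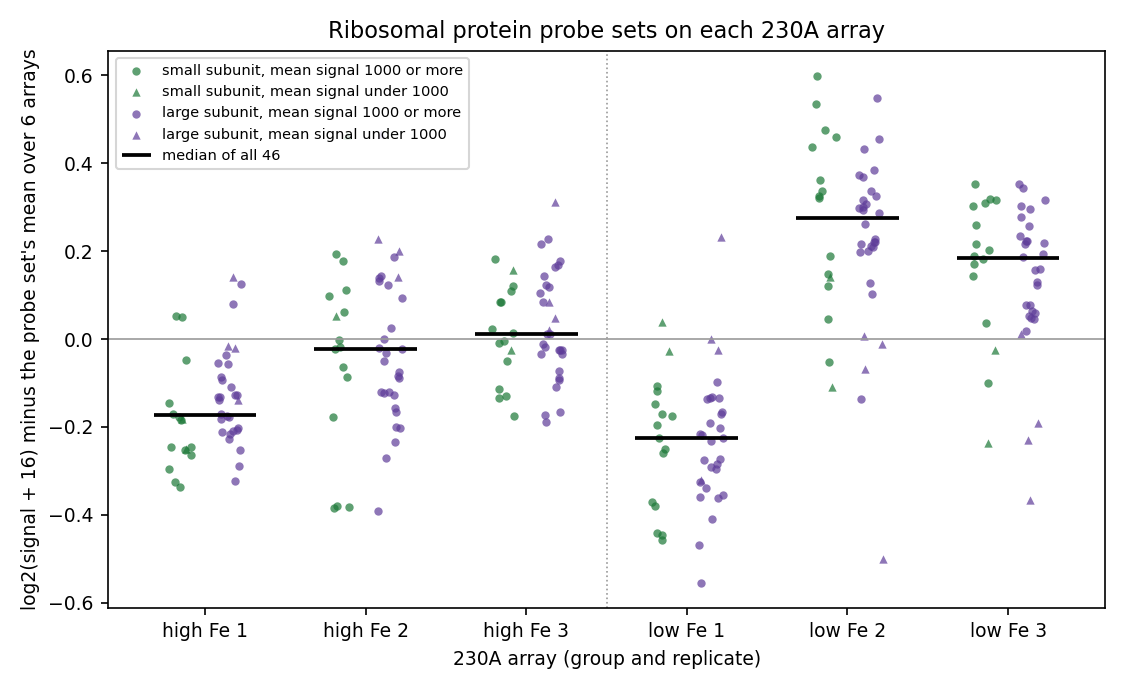
Each tested ribosomal protein probe set on 230A as log2(signal + 16) minus its mean over the 6 arrays, by array, with subunit and brightness marked and the median of the 46 as a bar. The median is lowest in low Fe 1 (-0.23) and highest in low Fe 2 (0.27).

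Counted by member, low Fe 1 was the lowest of the 6 arrays in 25 of 46 (54.3%), against 17.9% of all tested. Low Fe 2 was the highest in 29 (63.0%), against 18.2% of all tested. Low Fe 1 lay below both other low Fe arrays in 40 members (87.0%), against 38.9% of all tested probe sets. Low Fe 2 and 3 both exceeded every high Fe array in 25 members (54.3%), against 15.7% of all tested. Low Fe 1 lay below every high Fe array in 27 members (58.7%), against 26% of all tested.

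The spread within low Fe was accordingly wide. The median SD on the log2 scale was 0.16 in high Fe and 0.28 in low Fe for the members, and 0.19 in both groups for all tested. Without low Fe 1, the low Fe SD, then over fewer arrays, was 0.11 for the members and 0.12 for all tested. The members' spread was then no wider than that of all tested, whose SD fell as well. Leaving out another low Fe array was not compared. The low Fe SD exceeded the high Fe SD in 38 of 46 members, against 48.8% of all tested. Between pairs of the 40 bright members, Pearson's r over the 6 arrays had a median of 0.76 (780 pairs), against 0.0074 for pairs of other probe sets this bright; all pairs share the same arrays and scaling. As a share of the summed signal of an array, the members made up 1.66%, 1.70% and 1.82% in high Fe and 1.52%, 2.22% and 2.08% in low Fe, or 1.72% ± 0.084 and 1.94% ± 0.37 (SD, n = 3).

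Genes with and without the pyrimidine run had the same array order. Of 23 tested genes with a run of at least 8, 20 lay above 0, with a median of 0.17. Of 15 without one, 10 lay above 0, with a median of 0.10. The first set had medians of -0.23 in low Fe 1 and 0.32 in low Fe 2, and the second -0.25 and 0.29.

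Other TOP mRNAs had a similar profile from array to array, and none passed the test. Of 13 tested on 230A (elongation factors, Rack1, Npm1 and others), 11 lay above 0, with a median of 0.12, and their array medians were -0.18, 0.23 and 0.16 in low Fe 1 to 3. Eef1g, a subunit of the elongation factor that reloads eEF1A, gave 0.39 ± 0.19 on 230A (limma adjusted p = 0.759) but -0.37 ± 0.17 on 230B (limma adjusted p = 0.495), so it has no common direction. Eef2, which moves the ribosome along the mRNA, gave 0.18 ± 0.14 on 230A and -0.12 ± 0.37 on 230B; the 2 genes of this list tested on 230B, Eef1g and Eef2, thus both lay below 0 there. Eef1a1, which delivers tRNA, gave -0.18 ± 0.20 on 230A. Rack1, a signalling scaffold on the small subunit, gave 0.15 and was the one tested gene of the list of ubiquitin fusions and Rack1.

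Mitochondrial ribosomal proteins, which build the separate ribosome of mitochondria, were centred near 0. Of 70 genes tested on 230A, 38 lay above 0, with a median of 0.012, and 0 were called. Mrpl3 (-0.36) and Mrpl53 (-0.35), 2 of the 70, had an unadjusted p under 0.05, against 6.72% of all tested. On 230B, 11 of 17 lay above 0, with a median of 0.11. There 1 of the 17, Mrps14 (0.60), had an unadjusted p under 0.05, against 10.3% of all tested. On 230A their array medians were -0.01 in high Fe 1, against -0.17 for the cytosolic proteins, and -0.25, 0.14 and 0.14 in low Fe 1 to 3. Both sets were thus low in low Fe 1 and above 0 in low Fe 2 and 3, while high Fe 1 was low in the cytosolic set. The plot of group medians by array shows these profiles side by side.

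**Figure D4:**
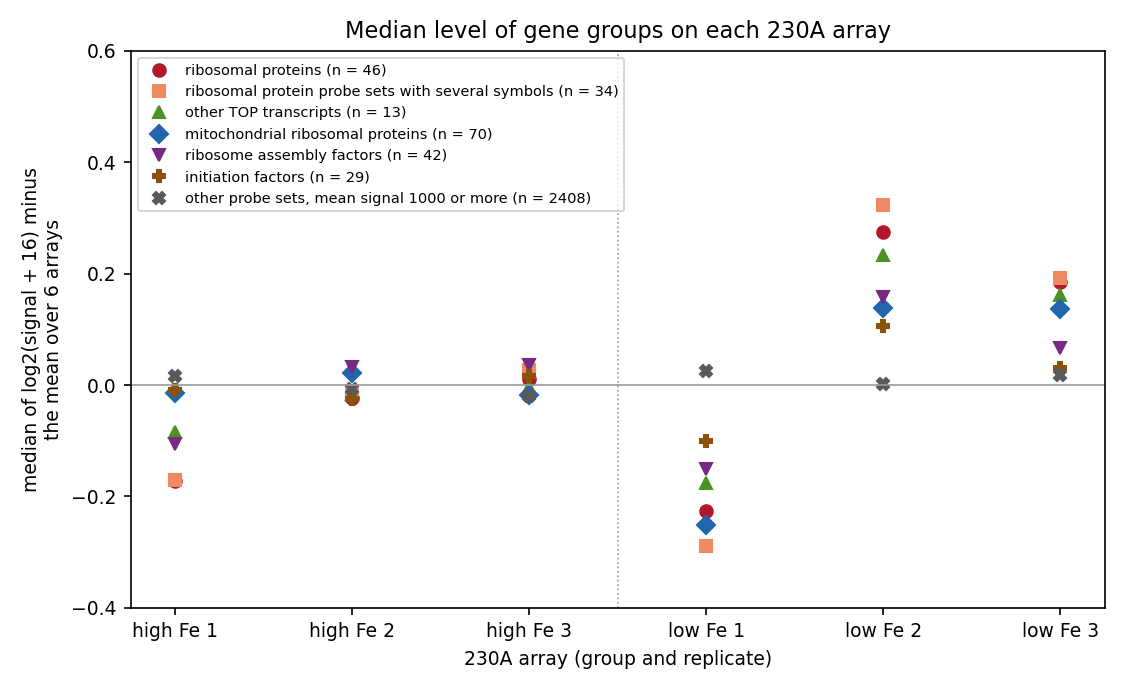
Median of log2(signal + 16) minus the mean over the 6 arrays, by 230A array, for the groups of genes named in the legend. The cytosolic ribosomal proteins run from -0.23 in low Fe 1 to 0.27 in low Fe 2.

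The genes that build ribosomes or set their use gave no calls in either direction. Of 42 ribosome assembly genes tested on 230A, 26 lay above 0, with a median of 0.05; the 4 with the smallest p lay on both sides of 0. Bysl, needed for small subunit maturation, gave -0.47 and Sbds, which readies the large subunit for joining, gave -0.33. The nucleolar genes Nolc1 and Nop16 gave 0.33 and 0.44. Another Nolc1 probe set on 230A gave 0.01, and Nolc1 on 230B gave -0.61 ± 0.29 (limma adjusted p = 0.506), so it has no common direction. Of 29 initiation factors, 17 lay above 0, with a median of 0.015. Eif3j, a loosely bound part of the scaffold factor eIF3, gave 0.38 ± 0.15 on 230A (limma adjusted p = 0.714) and 0.79 ± 0.19 on 230B (limma adjusted p = 0.391). Eif5b, which joins the subunits, and Eif1ad lay below 0 on 230A, at -0.30 ± 0.15 and -0.28 ± 0.15. On 230B, 5 of 12 initiation factors lay above 0, with a median of -0.22.

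Of 23 genes of mTOR and S6 kinase signalling, 14 lay above 0, with a median of 0.06, and 4 of 23 had an unadjusted p under 0.05, against 6.72% of all tested. These were Rictor (0.61), which defines the mTOR complex that acts on AKT, the eEF2 kinase gene Eef2k (0.96; high Fe mean 96.7, below the test's signal boundary, and low Fe mean 202.7, so it was tested only through the group where it is high), the lysosomal GTPase gene Rragd (0.34) and Eif4ebp3 (-0.70), which binds eIF4E; their limma adjusted p ran from 0.564 to 0.734. Of 18 genes of the stress response through eIF2α phosphorylation, which the heme-regulated kinase Eif2ak1 can start, 8 lay above 0, with a median of -0.016. Among them Shmt2, of mitochondrial one-carbon metabolism, gave 0.45 ± 0.16 and Phgdh, of serine synthesis, gave -0.42 ± 0.22 (limma adjusted p = 0.686 and 0.767). On 230B, 12 initiation factors, 21 ribosome assembly genes, 5 signalling genes and 2 stress response genes were tested. Of these, limma called 0, and 3 had an unadjusted p under 0.05, where 10.3% of all tested did. These were Eif3j, Rrn3 (1.12), which starts RNA polymerase I, and Emg1, which modifies ribosomal RNA. Another Rrn3 probe set on 230B gave 0.08. In the Rrn3 probe set at 1.12, low Fe 1 (717.6) lay below high Fe 3 (725.2), while low Fe 2 and 3 gave 1981.3 and 1622.2. Emg1 was tested only through its high Fe mean (327.3, against 73.8 in low Fe and a boundary of 199.6), so its p is not read as a result.

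Markers of some other cells varied in part along with the members. The 9 tested genes of dividing crypt cells, of 13 measured on 230A, had array medians of -0.45, 0.00 and 0.08 in high Fe 1 to 3 and -0.13, 0.49 and 0.08 in low Fe 1 to 3; their summed signal was 2038 to 2417.5 in high Fe and 3002 to 4560.1 in low Fe. Without Pcna, the DNA clamp gene that holds most of this difference, the other 8 genes summed to 969.8 to 1372 in high Fe and 1085 to 1874 in low Fe, and the groups overlapped. The stem cell genes Lgr5 (50.7 to 74.1) and Ascl2 (8.9 to 106.9) were too dim to be tested. The Paneth cell genes Lyz2 and Defa24, the 2 tested of 5 measured, had medians of -0.90 in high Fe 1, -0.41 in low Fe 1 and 0.80 in low Fe 2. Defa5 and Mmp7 did not exceed 12.7, and Pla2g2a (5.4 to 276.4) was also too dim to be tested. The summed signal of Lyz2 and Defa24 was 1526 to 3109.6 in high Fe and 2437 to 4542 in low Fe. Lyz2, which was also on the macrophage list, held most of it (means of 1814 in high Fe and 2356 in low Fe). Enterocyte genes did not share the members' profile and had medians of -0.29, 0.42 and 0.01 in high Fe and 0.12, -0.11 and -0.21 in low Fe and a summed signal of 94362 to 153314 in high Fe and 98045 to 124560 in low Fe. On 230A, the median of the 6 tested smooth muscle genes, of 9 measured, was above all high Fe arrays in every low Fe array. It was 0.15, 0.33 and 0.41 in low Fe 1 to 3. Their summed signal was 3482 to 4127 in high Fe and 4497 to 5798 in low Fe. Most of that sum came from Mylk (means of 2754 in high Fe and 3711 in low Fe). On 230B the groups overlapped for the 2 tested genes, Des and Mylk. Their medians there were -0.17, -0.74 and 0.54 in high Fe 1 to 3 and 0.55, 0.08 and -0.26 in low Fe 1 to 3. The part of these cells in the ribosomal protein pattern was not tested.

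The RNA quality controls differed between arrays. The ratio of the 5′ to the 3′ GAPDH control probe set was 0.794 to 0.811 in high Fe 1, low Fe 2 and low Fe 3, and 0.876 to 0.922 in high Fe 2, high Fe 3 and low Fe 1. Among arrays of the lower ratio, the members' median was 0.27 and 0.19 in low Fe 2 and 3 and -0.17 in high Fe 1. Among those of the higher ratio, it was -0.02, 0.01 and -0.23 in high Fe 2, high Fe 3 and low Fe 1. The same ratio for actin was 0.0539 in low Fe 3 and 0.591 to 0.836 in the other 230A arrays. Each of these sets holds a single array of one group: high Fe 1 in the lower set and low Fe 1 in the higher set, the 2 arrays in which the members were lowest. Within the arrays of lower GAPDH ratio the members' median difference was 0.37, with 42 of 45 above 0 (the filter on dim probe sets, applied to these arrays alone, left 45). Within those of higher ratio it was -0.22, with 2 of 46 above 0. The values within the sets therefore rest on those single arrays and carry no test. With the 2 sets as a block the median was 0.07. The part of RNA quality in the result was not tested.

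Leaving out single arrays of either group moved the members' median, while another scaling moved the members and all tested probe sets alike. Without low Fe 1 the median was 0.25, with 41 of 46 above 0 and 21 at an unadjusted p under 0.05 (20 higher), against 12.6% of all tested in either direction and 5.61% higher; the smallest limma adjusted p was 0.188 and 0 were called, against 0.221% of all tested. Without low Fe 2 the median was 0.01, with 23 of 46 above 0. Without high Fe 1 it was 0.04, with 27 of 46 above 0, and without low Fe 3 it was 0.07, with 31. Without high Fe 2 it was 0.14, and without high Fe 3 it was 0.16. Scaled to a common median, 40 of 46 lay above 0, with a median of 0.18 against 0.05 for all tested. Scaled on the hybridization controls, 45 of 46 lay above 0, with a median of 0.47 against 0.33 for all tested, and 8 were higher at an unadjusted p under 0.05, against 4.63% of all tested.

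**Figure D5:**
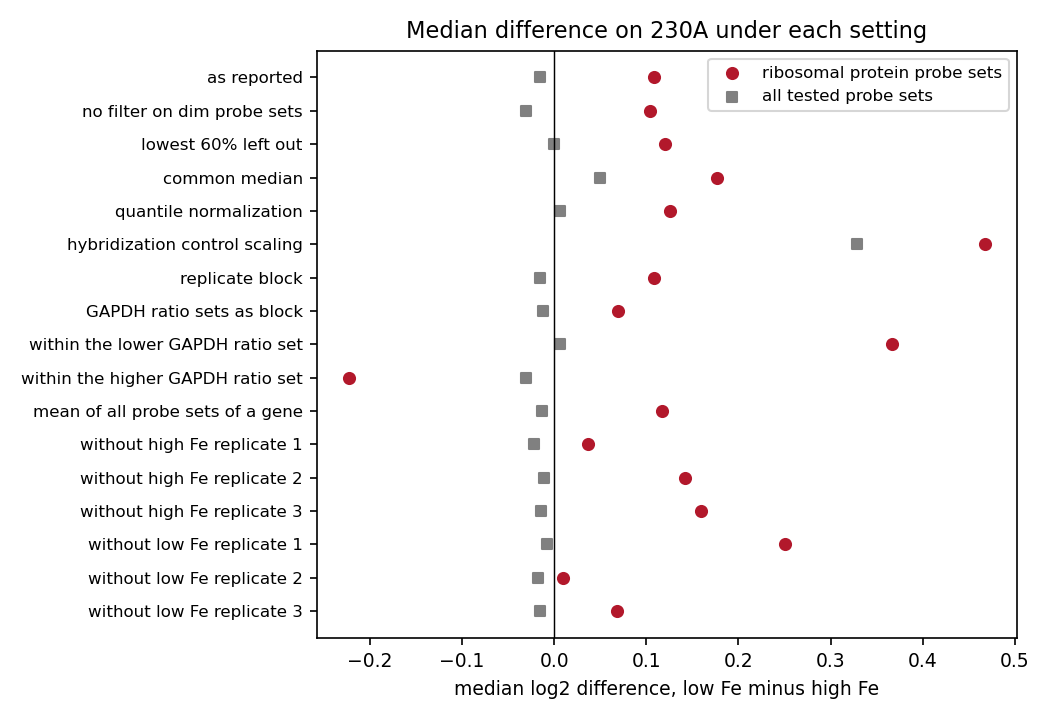
Median log2 difference (low Fe minus high Fe) of the ribosomal protein probe sets in red and of all tested probe sets in grey on 230A under the settings listed on the vertical axis. The members' median runs from -0.22 within the arrays of higher GAPDH ratio to 0.47 with hybridization control scaling.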

How the data were processed

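The deposited files hold 1 signal intensity per probe set and array. The authors' scanner software, its settings and any earlier steps are not given in the sources used here; the deposited intensities have a trimmed mean near 500.1 on every 230A array, so arrays had been scaled to a common level. The number of arrays limits the precision. No pair of arrays held identical values. Control probe sets (57 per array type) were left out.

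Each array type was analysed alone. Probe sets in the dimmest 40% by mean signal were not tested (boundary 109 on 230A and 199.6 on 230B). log2(signal + 16) was fitted with limma 3.58.1 in R 4.3.3, with a mean-variance trend, and p-values were adjusted by Benjamini-Hochberg over all tested probe sets at 0.05. A log2 difference on this scale understates the change of dim probe sets. The fit was tested on simulated data. Gene symbols came from the platform annotation and RefSeq; 48 of 50 and 6 of 6 members matched by Entrez identifier, the rest by symbol.

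Members and lists were chosen with earlier results of these data known. Members chosen to be named with their values were the 6 of 230A and 3 of 230B with the smallest p in each direction, every paralog, the stalk and Rpl5 and Rpl11, Rps6, Rps19, Rpl3, and genes whose probe sets disagreed; Rps19 had no member probe set. Of each list, up to 4 genes with the smallest p were candidates for naming. A gene with several probe sets was represented by the brightest in lists. Alternatives covered the pseudocount, the filter, the scaling, the variance model, the replicate number, the GAPDH ratio, each array left out and the probe sets of a gene.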

Additional observations from a re-analysis of the deposited data

How the results depend on the processing

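No ribosomal protein probe set was called under any alternative that gave a test, on either array type, nor at an adjusted p of 0.1. Over all tested 230A probe sets, the 9 called became 33 with hybridization control scaling, 15 at an adjusted p of 0.1, 6 with no filter, 4 with the replicate block and 5 to 21 with each array left out; on 230B, 0 became 3 with hybridization control scaling. On 230A the members' median (0.11) became 0.47 with hybridization control scaling, 0.37 within the lower and -0.22 within the higher GAPDH ratio set, and ran from 0.01 to 0.25 with each array left out. On 230B (0.16) it became 0.29 with a common median, 0.34 with hybridization control scaling, 0.030 with the GAPDH block and -0.067 within the lower set, and ran from 0.014 without high Fe 2 to 0.23 with each array left out. The GAPDH sets were taken from 230A; on 230B the ratio of low Fe 3 (0.873, lower set) and low Fe 1 (0.877, higher set) shows no gap between them.

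Single members lay on the other side of 0 as follows. With hybridization control scaling, which moved the median of all tested 230A probe sets from -0.015 to 0.33, the Rpl7l1 probe sets gave 0.15 and 0.18, Rps27l 0.088, Rpl18 0.25 and Rpl39 0.24, all still below that median. With the GAPDH block Rpl39 gave 0.020. Within the lower set, whose high Fe arm is high Fe 1 alone, Rps27l gave 0.078, Rpl18 0.045 and Rpl13a of 230B -0.067. Within the higher set, whose low Fe arm is low Fe 1 alone, Rps3 gave -0.075, Rps24 -0.022, Rpl41 -0.0018, Rps23 -0.057, Rpl5 -0.058, Rpl19 -0.10, Rps6 -0.22, Rpl3 -0.28, Rplp0 -0.23, Rpl11 -0.076, the bright Rpl7 probe set -0.062 and Rpl39 0.090. The mean of both Rpl7 probe sets gave -0.17. With each array left out, Rpl18 ran from -0.23 to 0.073, Rpl39 from -0.24 to 0.062 and Rplp0 from -0.0065 to 0.24. The cause of these changes was not tested.

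The labels number the replicates alike in both groups, but same-numbered arrays did not deviate together (r of -0.37, -0.15 and -0.27 on 230A), so the numbers were not read as a pairing. With the replicate number as a block the members' median stayed 0.11 on 230A and 0.16 on 230B, and 0 were called.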
